A study of Mus musculus with 15 samples.

Results

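Interferon-stimulated genes were described in bulk RNA sequencing libraries of mouse cortex taken 1 day after a brain injury. The set holds 39 genes that were listed by symbol as a gene module, and each symbol was matched to a mouse Ensembl gene of GRCm38. All 39 were found among the 33223 genes of the count tables, and the rule uses no measured value, but the list was drawn up with earlier results of these data known. Genes were grouped by role into 6 RNA and DNA sensors, 3 transcription factors, 3 genes of the Isg15 conjugation system, 4 IFIT genes, 5 OAS genes, 6 other antiviral effectors, 5 immunity GTPases and 7 other induced genes.

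Type I interferons are cytokines that cells release when sensors detect foreign or misplaced nucleic acid. They bind the receptor formed by Ifnar1 and Ifnar2, the kinases Jak1 and Tyk2 act on factors that include Stat2, and with Irf9 these form a complex that binds the interferon-stimulated response element (ISRE) in the promoters of target genes. Interferon gamma acts through another receptor and leads to binding at the gamma-activated site (GAS). In brain, microglia, infiltrating leukocytes, astrocytes and endothelial cells are all known to be able to respond to interferon.

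The mice were floxed for EphA4, a receptor tyrosine kinase for ephrins, in both genotypes. WT mice were the floxed animals labelled EphA4f/f-WT. KO mice also carried VeCadCreERT2, a Cre recombinase active after tamoxifen and driven by the VE-cadherin promoter, so the deletion is aimed at endothelial cells and not at the cells profiled here as a whole. Cortex on the side of a controlled cortical impact of moderate severity to the right parietal lobe was dissociated and separated with magnetic beads against CD45 and CD31, and RNA was taken from the CD45 cells and from the flow-through. The groups used were, in the flow-through, 4 WT and 3 KO libraries, and among CD45 cells 3 WT and 4 KO libraries. No uninjured group was analysed here, and the labels used give neither the age nor the identity of animals, so a p-value here measures how far these samples scatter, technical scatter included, and both fractions may come from the same animals. Replicate numbers were given in accession order and are names only.

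Total counts ran from 19204814 to 27270907 per flow-through library and from 11574414 to 31337948 per CD45 library, of which KO replicate 3 was the smallest. The summed level of 4 leukocyte markers was 2610 to 2980 CPM (counts scaled to the library total) in CD45 libraries and 5.81 to 11.7 in the flow-through. The flow-through held high astrocyte (6650 to 8060 CPM over 6 genes) and oligodendrocyte markers (21500 to 37100 over 5 genes), while 5 neuron markers summed to 180 to 461 CPM. Endothelial markers summed to 36.9 to 53.5 CPM in the flow-through and 254 to 400 in CD45 libraries, so neither fraction is an endothelial isolate, and Epha4, with means of 40.3 CPM in the flow-through and 2.65 CPM in CD45 libraries, does not check the deletion. One library, flow-through WT replicate 5 by its label, is a column of the CD45 table and goes against that label: its Ptprc level was 906 CPM, against 0.66 to 1.22 in the other flow-through libraries. It was left out of every comparison unless stated. Ranges given over the alternatives include a fit with it entered as labelled, except in the CD45 genotype comparison.

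The 6 promoters shown belong to named members picked for holding an ISRE match, so a match in each was fixed beforehand. Ifit3, Ifit3b, Igtp and Gbp3 were the members higher in every KO than in every WT flow-through library. Oas3 was at most 5 counts in the flow-through libraries compared, and Isg15 was the most abundant member per length in CD45 cells. For Gbp3, which had 2 promoter entries, a single entry with a match is shown. Each sequence is the 250 bases upstream of the RefSeq start on GRCm38.p6, 5′ to 3′ on the strand of the gene. Capitals mark matches to the ISRE letters GAAANNGAAA on either strand.
Ifit3 (chr19:34583279-34583528, plus strand): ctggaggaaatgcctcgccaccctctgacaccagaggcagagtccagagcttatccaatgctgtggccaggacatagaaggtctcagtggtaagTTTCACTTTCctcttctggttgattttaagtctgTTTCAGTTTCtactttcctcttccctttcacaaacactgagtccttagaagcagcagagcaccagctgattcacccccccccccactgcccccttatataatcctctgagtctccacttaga
Ifit3b (chr19:34607707-34607956, plus strand): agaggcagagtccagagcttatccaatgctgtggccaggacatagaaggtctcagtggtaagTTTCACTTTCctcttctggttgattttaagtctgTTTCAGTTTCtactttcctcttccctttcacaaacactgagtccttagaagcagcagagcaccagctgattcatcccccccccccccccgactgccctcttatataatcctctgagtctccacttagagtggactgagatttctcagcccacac
Igtp (chr11:58199306-58199555, plus strand): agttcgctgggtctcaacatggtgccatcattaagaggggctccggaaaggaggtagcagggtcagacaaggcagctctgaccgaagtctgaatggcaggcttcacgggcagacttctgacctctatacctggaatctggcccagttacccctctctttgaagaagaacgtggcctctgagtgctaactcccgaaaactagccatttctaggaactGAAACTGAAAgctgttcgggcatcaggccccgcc
Gbp3 (chr3:142559794-142560043, plus strand): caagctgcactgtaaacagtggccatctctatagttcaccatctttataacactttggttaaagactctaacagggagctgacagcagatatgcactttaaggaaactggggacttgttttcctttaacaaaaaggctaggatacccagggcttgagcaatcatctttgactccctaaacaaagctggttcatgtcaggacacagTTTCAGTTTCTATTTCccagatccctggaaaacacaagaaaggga
Oas3 (chr5:120777660-120777909, minus strand): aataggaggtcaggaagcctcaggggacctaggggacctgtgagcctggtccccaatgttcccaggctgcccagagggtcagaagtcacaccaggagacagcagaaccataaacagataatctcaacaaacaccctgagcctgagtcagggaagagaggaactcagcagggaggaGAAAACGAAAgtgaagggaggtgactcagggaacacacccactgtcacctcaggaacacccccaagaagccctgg
Isg15 (chr4:156200819-156201068, minus strand): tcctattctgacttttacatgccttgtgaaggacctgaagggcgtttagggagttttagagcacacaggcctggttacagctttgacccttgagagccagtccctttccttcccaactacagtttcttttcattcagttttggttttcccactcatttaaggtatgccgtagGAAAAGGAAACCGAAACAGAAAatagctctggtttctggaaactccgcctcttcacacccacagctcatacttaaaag
Ifit3 and Ifit3b, which lie close together on chromosome 19, carried the same pair of matches in the same spacing, beginning 156 and 122 bases upstream of the start in Ifit3 and 188 and 154 bases upstream in Ifit3b. Isg15 had 3 overlapping matches, the first beginning 78 bases upstream of its start. Igtp had its match 34 bases upstream and a GAS match, TTCNNNGAA, at 45 bases upstream.

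RefSeq promoters, each spanning 250 bases before to 50 bases after the start, were found for 30 of the 39 members. The ISRE letters were in 18 of the 30 (60.0%), against 3.99% of the 27025 genes with a promoter in the whole table. By role, they were in 3 of 3 sensors with an entry, 3 of 4 IFIT genes, 4 of 5 immunity GTPases, 2 of 4 OAS genes and 1 of 3 transcription factors. The GAS letters, searched in the same windows, were in 7 of 30 (23.3%), against 9.55% of all genes, and 4 members (Eif2ak2, Oas1a, Bst2 and Igtp) held both. Both strands were searched, and a match describes letters in the window, not a bound site.

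The members were first compared between fractions, CD45 cells against flow-through. In bulk samples, fewer cells of a type and less RNA per cell cannot be told apart. Of 39 members, 33 were called higher in CD45 libraries and 0 lower at an edgeR adjusted p under 0.05, with 6 not called. The background is high in this comparison: 41.4% of the 18098 genes tested were called higher and 44.7% lower. The members' median log2 fold change was 2.81, against -0.05 over all genes tested. On CPM, the 7 CD45 libraries lay above the 7 flow-through libraries without overlap for 24 members, and the other 15 overlapped. The share of all genes without overlap was not computed, so these counts are not read as a trait of the members.

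**Figure D1:**
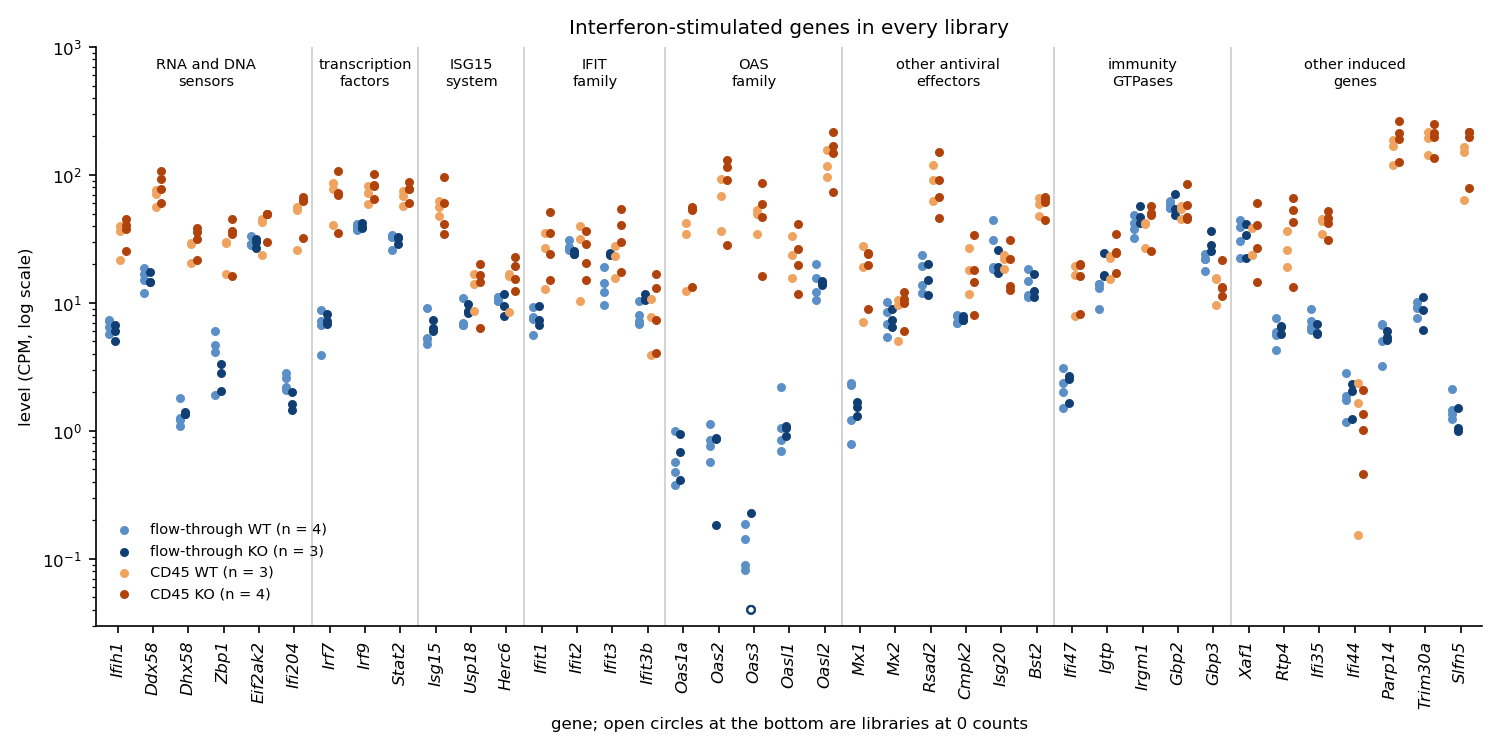
Level of each interferon-stimulated gene (CPM, log axis) in every library used, with genes ordered by role and colours giving fraction and genotype. OAS genes, Slfn5, Parp14 and Ifi204 lie far apart between fractions, while Ifit2, Ifit3b, Irgm1, Gbp2, Xaf1 and Ifi44 overlap; open circles at the bottom are libraries with 0 counts.

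The OAS family, whose active members make 2-5A, the activator of RNase L, has 5 genes in the set, all called higher in CD45 libraries. Oas3 had 34.3, 49.6 and 52.8 CPM in the CD45 WT libraries and 16.3, 47.1, 59.7 and 85.9 CPM in the CD45 KO libraries. In the flow-through it did not exceed 0.227 CPM (5 counts), and 2 KO libraries had 0. It passed the filter on low counts only through its CD45 libraries, so its fitted log2 difference of 9.43 is a description. It is 1 of the 33 called higher. Over the alternatives the difference ran from 6.51 to 11.23. These include a fit with flow-through WT replicate 5, at 25.6 CPM of Oas3, entered as labelled. Without Oas3, 32 of the 38 members that also passed the filter in the flow-through alone were called higher. Oas2 was higher by 7.30, Oas1a by 6.30, Oasl1 by 4.98 and Oasl2, the smallest of the family, by 3.77 (SE 0.23). Oas1a is uncertain, because 57.6% of the 50-base windows of its transcript also occur in transcripts of Oas1g.

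All 6 sensors were called higher in CD45 cells, with log2 fold changes from 1.00 to 5.16. Ifi204, a DNA-binding protein of the interferon-inducible p200 family, was at 25.7 to 67.0 CPM in CD45 and 1.47 to 2.85 CPM in flow-through libraries (5.16, SE 0.23). Its value is uncertain, since 30.2% of its transcript windows are shared with relatives such as Ifi211. The RNA helicases Dhx58, Ifih1 and Ddx58 (RIG-I) were higher by 4.94, 2.99 and 2.81, and Zbp1, which binds Z-form nucleic acid, by 3.61. Eif2ak2 (PKR), the kinase that halts translation on double-stranded RNA, was the smallest at 1.00 (SE 0.14), and its libraries overlapped on CPM, at 23.9 to 50 in CD45 and 26.7 to 33.1 in the flow-through.

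The transcription factors that carry the response were present in both fractions. Irf7, which amplifies interferon production, was at 35.2 to 107 CPM in CD45 and 3.89 to 8.74 CPM in flow-through libraries, a difference on the log2 scale of 3.83 (SE 0.27, edgeR adjusted p = 5.03e-09). Stat2 and Irf9, which act in the same complex, were higher by 1.72 (SE 0.09) and 1.49 (SE 0.09). Their flow-through means were 43.4% and 50.6% of the CD45 means on CPM, where Irf7 was at 10%. Isg15, a ubiquitin-like modifier, was higher in CD45 cells by 3.68 (SE 0.24), whereas Usp18, which removes Isg15 from proteins, and Herc6, which attaches it in mice, were higher by 1.23 (SE 0.22) and 1.13 (SE 0.17). Herc6 shares 13.7% of its exon bases with another gene model and is uncertain.

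The IFIT genes, a family that includes binders of viral RNA lacking host cap methylation, and the immunity GTPases, which act on membranes around intracellular pathogens, had the smallest medians of the role groups, 0.84 and 0.46. Ifit1 was higher in CD45 libraries by 2.38 (SE 0.28) and Ifit3 by 1.15 (SE 0.22), while Ifit2 (0.53, SE 0.25, edgeR adjusted p = 0.0584) and Ifit3b (0.41, SE 0.27, adjusted p = 0.169) were not called. Ifit2 was at 24 to 30.9 CPM in flow-through libraries and 10.3 to 40.1 CPM in CD45 libraries, so the flow-through lay inside the CD45 range. Of the GTPases, Ifi47 was higher by 3.27 (SE 0.26), a value that is uncertain because 8.8% of its exon bases lie in other gene models as well, and Igtp by 1.08 (SE 0.17). Irgm1 (0.41, SE 0.17) and Gbp2 (0.46, SE 0.14) were called higher with TMM scaling, but turned to -0.12 and -0.07 without a call when libraries were scaled by their totals. Gbp3 was the lowest, at 17.9 to 36.2 CPM in the flow-through and 9.71 to 21.8 CPM in CD45 libraries (-0.32, SE 0.16, edgeR adjusted p = 0.0639), and was called lower in CD45 cells with library totals (-0.85, edgeR adjusted p = 6.75e-05, the lowest over its alternatives, which ran up to 0.821).

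Scaling moves this comparison as a whole. With library totals the median of all genes tested was -0.58 in place of -0.05, the members' median was 2.28, 30 members were called higher (28.1% of all genes) and 1 lower (59.3% of all genes), and Mx2, Irgm1 and Gbp2 lost their calls. Without CD45 WT replicate 3 and KO replicate 4, the libraries with the lowest member levels, 36 were called higher (41.2% of all genes), and Ifit2, Ifit3b and Xaf1 joined the calls. This pair was picked for its low member levels, so the added calls follow from that choice and are not read as support.

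Among other antiviral effectors, Mx1, a dynamin-like GTPase that acts on viral nucleoproteins, was higher in CD45 cells by 4.07 (SE 0.35). Mx2, listed as a polymorphic pseudogene in the annotation used, was higher by 0.76 (SE 0.20), or 0.24 without a call when scaled by totals. Rsad2 (viperin) and its neighbour Cmpk2, a nucleotide kinase, were higher by 2.99 (SE 0.28) and 1.85 (SE 0.26). Bst2 (tetherin), which holds budding virus at the membrane, was higher by 2.63 (SE 0.14). Isg20, an exonuclease, was not called (0.30, SE 0.24) and reached its highest level, 44.2 CPM, in flow-through WT replicate 3. Of the other induced genes, Slfn5 was at 64.0 to 216 CPM in CD45 and 1.00 to 2.12 CPM in flow-through libraries (7.32, SE 0.34), Parp14, an ADP-ribosyltransferase, was higher by 5.55, and Trim30a by 4.97. Rtp4 (3.05) and Ifi35 (3.19) were called higher too, while Xaf1 (0.47, SE 0.28, edgeR adjusted p = 0.137) and Ifi44 (-0.04, SE 0.42, edgeR adjusted p = 0.925) were not. Rtp4, Ifi35 and Slfn5 share 13.9%, 16.8% and 8.8% of their exon bases with other gene models and are uncertain.

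The flow-through level can be set against that of leukocyte markers. Mean flow-through CPM was 0.211% of the CD45 mean for Oas3, 0.895% for Slfn5 and 0.926% for Oas2, while it was 0.105% for Ptprc, 0.149% for Cd52, 0.177% for Laptm5 and 1.08% for Coro1a, all leukocyte genes. It was 66.3% for Igtp, 71.2% for Eif2ak2, 101% for Ifit2 and 176% for Gbp3. Oas3, Slfn5 and Oas2 were above Ptprc, Cd52 and Laptm5 and below Coro1a, and Igtp, Eif2ak2, Ifit2 and Gbp3 were far above all of them. The part of leukocytes in the flow-through values was not tested. Per length, on mean RPKM, the most abundant members in CD45 libraries were Isg15 (75.3), Bst2 (65.1) and Trim30a (47.0), and in the flow-through Gbp2 (23.0), Bst2 (15.2) and Isg20 (13.4).

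The genotype was compared within each fraction, KO against WT. In the flow-through, 0 of the 38 members tested were called by edgeR at an adjusted p under 0.05, where 1.57% of the 16546 genes tested were called. Oas3 did not pass the filter on low counts. At an unadjusted p under 0.05 there were 4 members, against 11% of all genes, and DESeq2 called 3 (Ifit3, Igtp and Gbp3), against 2.74% of the 15903 genes to which it gave an adjusted p. The median log2 fold change was 0.01, with 21 members above 0 and 17 below.

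The 4 with the smallest p were all higher in KO. Ifit3, an IFIT gene strongly induced by type I interferon, was at 9.68, 12.1, 14.3 and 19.2 CPM in the WT libraries and 23.6, 24.2 and 24.5 CPM in the KO libraries. The KO libraries were tightly grouped and lay above all WT libraries, and the log2 difference of 0.83 (SE 0.18) missed the threshold (edgeR adjusted p = 0.0537). It passed with DESeq2 (adjusted p = 0.00112), without WT replicate 2 (1.02, edgeR adjusted p = 0.0102) and without WT replicate 4 (0.68, edgeR adjusted p = 0.0457). With no filter on low counts it passed as well (edgeR adjusted p = 5.84e-09), and why this value fell so far was not tested. Over all alternatives its adjusted p ran up to 0.962. These include the fit with WT replicate 5 entered as labelled. The near-copy Ifit3b, in which 45% of transcript windows are shared, was at 6.80, 7.24, 8.06 and 10.3 CPM in WT and 10.6, 10.8 and 11.8 CPM in KO libraries (0.48, SE 0.15, edgeR adjusted p = 0.201). How reads were divided between the pair is not known, so they are uncertain one by one.

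Gbp3, a guanylate-binding protein, was at 17.9, 21.9, 22.0 and 24.3 CPM in WT and 25.6, 28.5 and 36.2 CPM in KO libraries (0.51, SE 0.13, edgeR adjusted p = 0.0916). Igtp (Irgm3), an immunity-related GTPase of the endoplasmic reticulum, was at 9.03, 13.2, 14.0 and 14.1 CPM in WT and 16.2, 16.5 and 24.7 CPM in KO libraries (0.63, SE 0.19, edgeR adjusted p = 0.187). In both genes KO replicate 3 stood highest; without it the log2 fold changes were 0.36 for Gbp3 and 0.41 for Igtp. Igtp shares 12.3% of its transcript windows with Irgm2 and is uncertain.

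**Figure D2:**
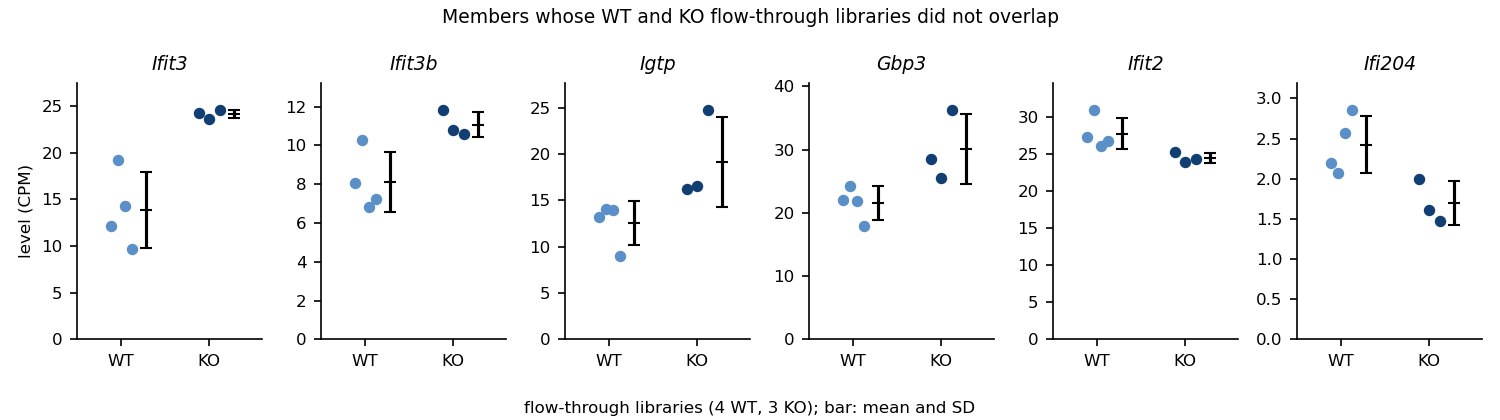
CPM in each flow-through library (4 WT, 3 KO; points) with the mean and SD, for the 6 members whose WT and KO libraries did not overlap. KO libraries lie above WT for Ifit3, Ifit3b, Igtp and Gbp3 and below for Ifit2 and Ifi204, with the closest gap in Ifit3b (10.3 against 10.6).

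Every KO library lay above every WT library for these 4 members of 38, where 5.19% of all genes tested did so, and below for 2, Ifi204 and Ifit2, where 6.78% did. Ifi204 was at 2.07, 2.20, 2.57 and 2.85 CPM in WT and 1.47, 1.61 and 2.0 CPM in KO libraries (-0.49, SE 0.23, edgeR adjusted p = 0.468). Ifit2 was at 26.1, 26.8, 27.3 and 30.9 CPM in WT and 24, 24.3 and 25.3 CPM in KO libraries (-0.15, SE 0.09). Beside these values, the flow-through KO libraries were also above all WT libraries for Coro1a (7.76 to 8.96 against 3.47 to 7.30 CPM), Cx3cr1 (1.21 to 1.77 against 0.422 to 0.854 CPM) and Csf1r (2.02 to 3.91 against 1.09 to 1.42 CPM), genes of leukocytes and microglia. The 4 leukocyte markers summed to 10.8 to 11.7 CPM in KO and 5.81 to 11 CPM in WT, with Ptprc not higher in KO (0.660 to 0.955 against 0.854 to 1.22 CPM), and the 6 microglia markers to 112 to 122 and 109 to 124 CPM. The part of such cells in the Ifit3, Igtp and Gbp3 values was not tested.

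In the CD45 fraction, 0 of 39 members were called by edgeR, 0 had an unadjusted p under 0.05 (4.43% of all genes did), and DESeq2 called 0 (0.0883% of the 10188 genes with an adjusted p). Of the 15660 genes tested, 0% were called. No member had KO and WT libraries that did not overlap; the shares of all genes were 2.92% with KO above and 2.16% with KO below. The median log2 fold change was 0.18, with 34 of 39 above 0, against 0.02 and 54.5% over all genes. This median rested on single libraries: it was 0.00 without WT replicate 3, 0.02 without KO replicate 3 and 0.35 without KO replicate 4, and 0.32 and 0.29 without WT replicates 1 and 2.

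Of the members with the smallest p, Ifit3 was at 15.6, 23.4 and 27.7 CPM in WT and 17.4, 30, 40.8 and 54.2 CPM in KO libraries (0.65, SE 0.37). Rtp4, a chaperone of cell-surface receptors, was at 19.2, 26.1 and 36.6 CPM in WT and 13.4, 43.1, 53.6 and 65.8 CPM in KO libraries (0.65, SE 0.51). Ddx58 (0.29, SE 0.19) and Irf9 (0.20, SE 0.16) were next, and all 4 had an edgeR adjusted p of 0.974. In each of these genes KO replicate 4 fell among or below the WT libraries. The members' SEs were large here, with a median of 0.34 against 0.17 over all genes tested and 0.19 for the members in the flow-through.

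**Figure D3:**
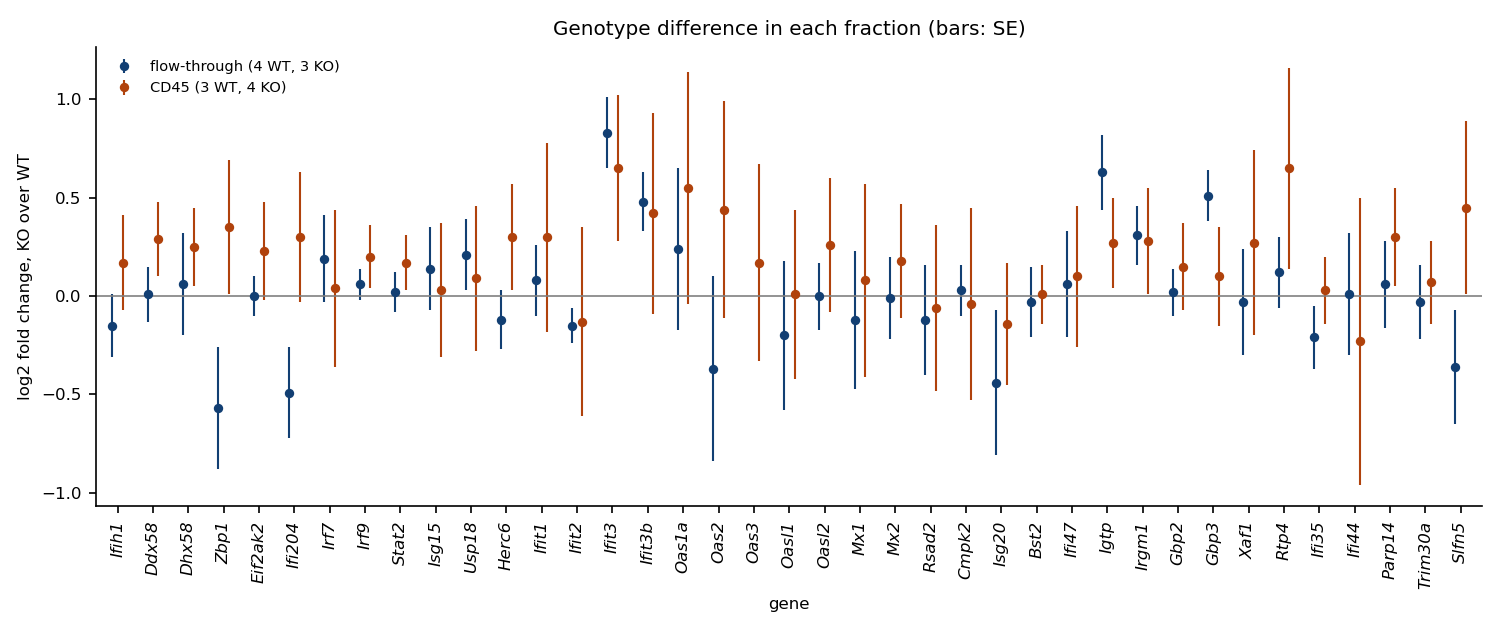
Log2 fold change of KO over WT with its SE for each member, in the flow-through (dark blue) and the CD45 fraction (orange). Ifit3, Igtp and Gbp3 stand above 0 in the flow-through, and the CD45 bars are wider, with a median SE of 0.34.

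The difference between fractions in the genotype effect was tested directly. The interaction called 0 of 39 members with edgeR, 0 at an unadjusted p under 0.05 (7.21% of all genes) and 0 with DESeq2 (0.308% of the 14931 genes with an adjusted p), and 0% of the 18098 genes tested were called. The smallest p belonged to Ifi204 (0.77, SE 0.44) and Zbp1 (0.91, SE 0.53), which were below 0 in the flow-through and above 0 in CD45 cells, to Gbp3 (-0.44, SE 0.31) and to Herc6 (0.40, SE 0.33), with edgeR adjusted p from 0.740 to 0.813. Ifit3 had -0.20 (SE 0.44), so its flow-through difference of 0.83 and CD45 difference of 0.65 were not shown to differ.

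The members varied together across CD45 libraries of the same genotype. The within-genotype SD of log2 CPM had a median of 0.56 over the 39 members, against 0.23 over all genes tested, and the highest library exceeded the lowest by a median of 2.75-fold, against 1.59-fold. KO replicate 3 was the highest library for 33 members (10.1% of all genes), and the lowest was WT replicate 3 for 22 (25.1% of all genes) and KO replicate 4 for the other 17 (14.8%). Both of these lay below the other 5 libraries in 35 members, against 14.6% of all genes, the exceptions being Isg15, Isg20, Gbp2 and Xaf1. The mean log2 level over the 39 members was 5.23, 5.26 and 4.41 in WT replicates 1 to 3 and 5.17, 5.37, 5.73 and 4.37 in KO replicates 1 to 4. One library of each genotype was therefore low, and the genotypes overlapped.

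**Figure D4:**
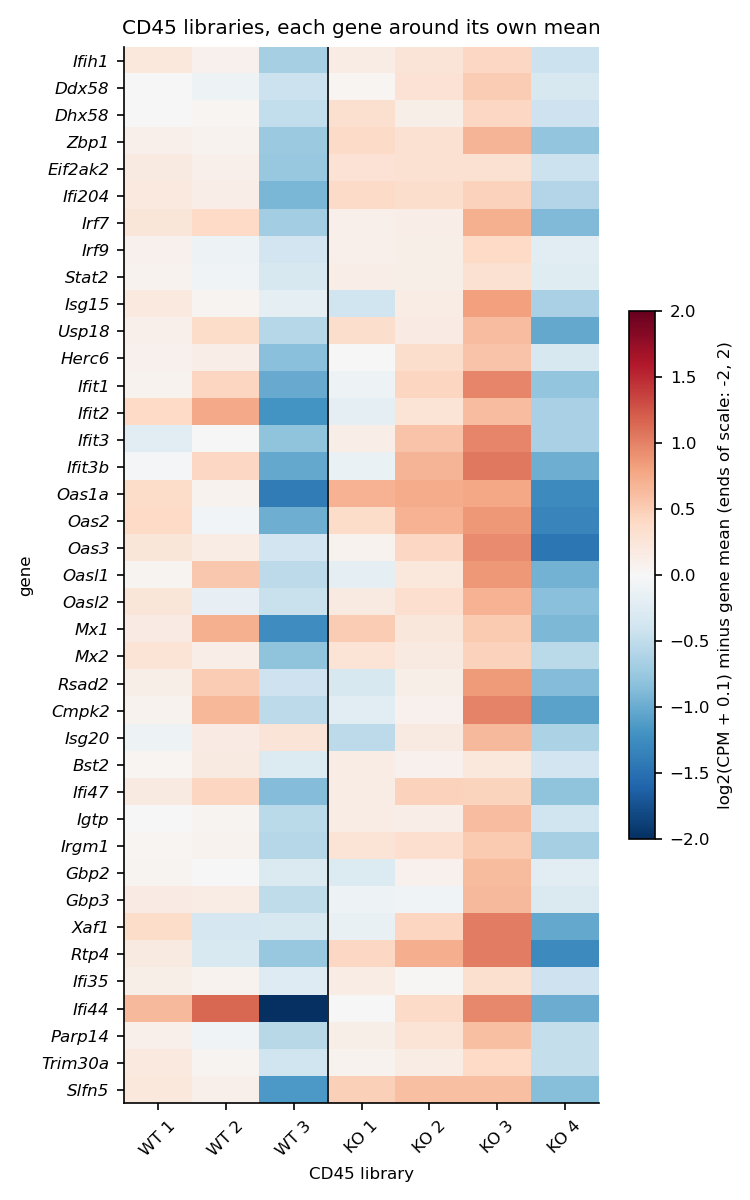
Log2(CPM + 0.1) of each member in the 7 CD45 libraries minus that gene's mean, with red above and blue below it. WT replicate 3 and KO replicate 4 are blue in nearly all rows and KO replicate 3 is red; Ifi44 in WT replicate 3, at 0.154 CPM, reaches the end of the scale.

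The range was wide for the OAS genes, Slfn5 and Rtp4. Oas1a was at 12.3 CPM in WT replicate 3 and 13.4 CPM in KO replicate 4, and at 34.4 to 56.1 CPM in the other 5 libraries. Slfn5 was at 64.0 and 79.1 CPM in the same pair and at 152 to 216 CPM in the others. Oas2 was at 36.3 and 28.6 CPM in the pair and at 68.7 to 130 CPM in the others. For Stat2, Bst2 and Ifi35 the range was narrow, with the highest library 1.55-fold, 1.5-fold and 1.68-fold above the lowest.

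Markers of other cells moved with this pattern in part. Summed leukocyte markers were 2730 and 2660 CPM in WT replicate 3 and KO replicate 4, inside the 2610 to 2980 CPM of the other 5. The 6 monocyte and macrophage markers summed to 8740 and 10500 CPM in that pair, below the 11800 to 13400 CPM of the others, and the 6 neutrophil markers to 7040 and 7320 CPM, above 3840 to 6820 CPM. Oligodendrocyte markers summed to 1470 and 919 CPM, above 337 to 650 CPM, and B cell markers to 25.9 and 27.7 CPM, above 13.5 to 19.2 CPM. The pair was also above the others for oligodendrocyte precursor markers and below them for pericyte markers. Microglia markers, at 3420 and 3830 CPM, lay inside 3240 to 4070 CPM, and T and NK cell markers lay inside too. For astrocyte, neuron, endothelial, fibroblast and red cell markers, the pair was not on 1 side of the others. The 4 plasmacytoid dendritic cell markers, of a cell known for making interferon, summed to 27 and 32.6 CPM against 27.8 to 42.0 CPM. KO replicate 3, the library with the highest member levels, had monocyte markers at 11800 CPM and neutrophil markers at 6820 CPM, and the smallest total count. WT replicate 3 and KO replicate 4 also stood last in the order of the samples, and the labels name no batch. The part of cell makeup, depth or sample order in the pattern was not tested.

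**Figure D5:**
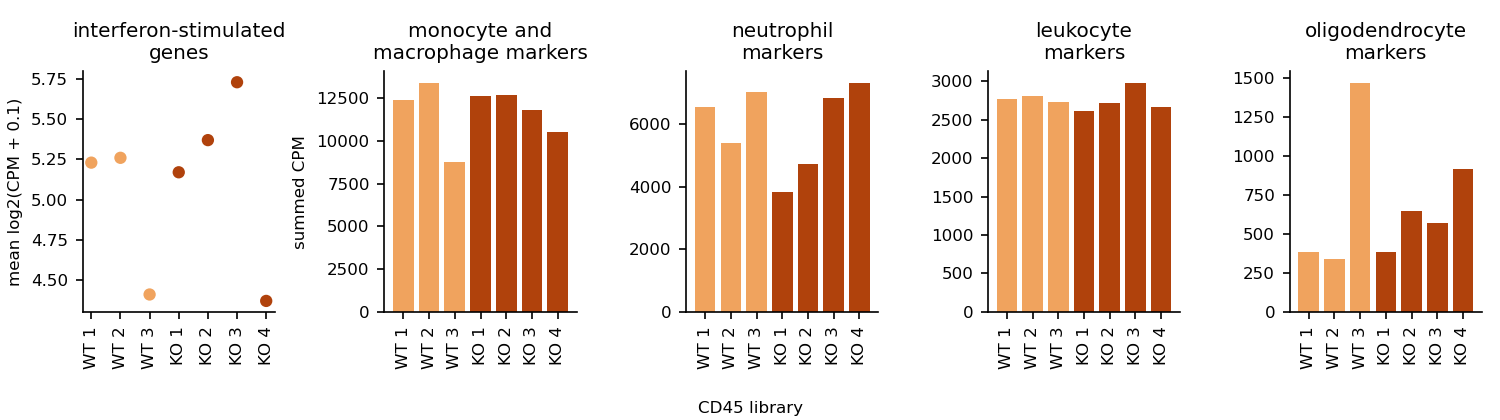
Mean log2(CPM + 0.1) of the 39 members in each CD45 library (points) beside the summed CPM of 4 marker lists (bars from 0). The members are lowest in WT replicate 3 and KO replicate 4, where monocyte and macrophage markers are lowest and neutrophil and oligodendrocyte markers highest, while leukocyte markers are level.

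The flow-through libraries varied less and in another order. The within-genotype SD had a median of 0.31 over 38 members, against 0.17 over all genes, and the highest library exceeded the lowest by a median of 1.88-fold, against 1.43-fold. WT replicate 2 was the highest library for 20 of 38 members (14.7% of all genes), and WT replicate 1 the lowest for 14 (20.4%). Mean log2 levels were 2.69, 3.28, 2.96 and 2.91 in WT replicates 1 to 4 and 3.01, 2.97 and 2.93 in KO replicates 1 to 3, so the KO libraries lay inside the WT range.

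Other genes of the pathway were read from a separate list, of which 37 were in the tables. The ligands were nearly absent from the reads. Ifnb1 (interferon beta) had 17, 4 and 10 counts in the CD45 WT and 14, 13, 2 and 5 counts in the CD45 KO libraries, and at most 2 counts in any flow-through library. Ifng had at most 8 counts in a CD45 library and 0 in the flow-through, and no Ifna gene in the list had more than 1. KO replicate 3, where the members were highest, had 2 counts of Ifnb1 (0.173 CPM), under the 0.259 CPM that 3 counts amount to in that library.

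Of 30 pathway genes tested between fractions, 28 were called higher in CD45 cells and 1 lower. Of all genes tested, 41.4% were called higher and 44.7% lower. The median log2 fold change of the pathway genes was 2.71, against -0.05 over all genes. The receptor gene Ifnar1 was at 269 to 326 CPM in CD45 and 65.6 to 77.6 CPM in flow-through libraries (2.59, SE 0.06). Of the 28 called higher, Tlr7 and Tlr9 passed the filter on low counts only through CD45 cells. Among the 28 genes that also passed it in the flow-through alone, 26 were called higher and 1 lower. Tlr7, an endosomal sensor of single-stranded RNA, was at 149 to 204 CPM in CD45 and 0 to 0.571 CPM in flow-through libraries, and its fitted difference of 9.61 (SE 0.24) is a description. Tlr3, the endosomal sensor of double-stranded RNA, was the gene called lower (-0.55, SE 0.10, edgeR adjusted p = 8.01e-05). Socs1, an inhibitor of the Jak kinases, was not called (-0.09, SE 0.16). No pathway gene was called for genotype by edgeR. In the flow-through this was 0 of 28, with 2 (Irf8 and Socs1) at an unadjusted p under 0.05, against 11% of all genes. In CD45 cells it was 0 of 31, with 0 at an unadjusted p under 0.05, against 4.43% of all genes. In the interaction 0 were called, with 2 (again Irf8 and Socs1) at an unadjusted p under 0.05, against 7.21% of all genes.

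The pathway genes varied less between CD45 libraries than the members. Over the 31 pathway genes tested in CD45 cells the highest library exceeded the lowest by a median of 1.33-fold, below the 1.59-fold of all genes. WT replicate 3 and KO replicate 4 were both below the other 5 libraries for 5 of the 31, a share near the 14.6% of all genes. Among these 5 were Ifnar1, Myd88, Tlr3 and Tlr7. Irf1, a target of interferon gamma, did not follow the members, at 222 and 267 CPM in the pair and 136 to 220 CPM in the others.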

How the data were processed

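The submitters' processing notes name Trim Galore, FastQC, STAR 2.7.9a and GRCm38; how reads were counted, and whether by strand, is not given in the sources used here. The authors deposited whole-number counts per gene, 1 table per fraction, which were used as deposited. Companion normalized tables were not used. CPM divides counts by the library total, and RPKM divides CPM by exon length (GENCODE M21, which matched 33130 genes). Counts were tested with edgeR 4.0.16 in R 4.3.3 (quasi-likelihood, robust, TMM, filterByExpr with a minimum count of 10 and a minimum total of 15), with Benjamini-Hochberg adjustment over all genes tested and calls at 0.05; fold changes are on the TMM scale. The genotype was fitted within a fraction, and the fraction and interaction fits used 14 libraries with 1 mean per group. Chi-square per degree of freedom between libraries of a group was 9.42 to 49.8, so none was counted as a duplicate. Alternatives were other scalings, DESeq2 1.42.0, other filters, removal of GC and length trends, and each library left out. Flow-through WT replicate 5 was also entered as labelled, except in the CD45 genotype fit. Leaving out both low CD45 libraries was added after seeing the data. Scripts were tested on simulated data. Members, role groups and lists were chosen with earlier results of these data known. Genes named were the extremes of each role group between fractions, those not called, the 4 smallest p per genotype fit, the 3 highest per length in a fraction and a panel; others were named after their values were seen. Promoters are from RefSeq; Ifna1, Ifna2, Ifna11, Ifnk, Ifnz, Ifnl3 and Trex1 were not analysed here. For 1 gene of the pathway list, values are not reported here.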

Additional observations from a re-analysis of the deposited data

Results flagged for a closer look

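Within each group of 4 libraries, the highest or lowest library was marked where its gap to the next took up most of the group's range on CPM (Dixon's test at the 95% level). Of 78 such groups over the members, 7 were marked, where chance marks about 1 in 20. The members varied together across CD45 libraries, so these groups are not independent. The share of marks over all genes was not computed, and the count is not read as an excess.

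Of these, 4 are CD45 KO replicate 4 below the other 3 KO libraries. Eif2ak2 was at 30 CPM there against 49.3 to 50, Ifi204 at 32.3 against 62.1 to 67.0, Oas1a at 13.4 against 53.0 to 56.1 and Slfn5 at 79.1 against 198 to 216. The other 3 are flow-through WT libraries. Isg15 was at 9.15 CPM in WT replicate 2 against 4.81 to 5.29, and Usp18 at 11 CPM in the same library against 6.75 to 6.95. Stat2 was at 25.7 CPM in WT replicate 1 against 32.9 to 33.8.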

How the results depend on the processing

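Members called higher in CD45 cells numbered 30 to 36 over the alternatives, around 33. The 36 came without both low CD45 libraries, which were picked for their low member levels. The count called lower, 0, became 1 (Gbp3) with upper-quartile scaling, with library totals and with no filter on low counts, and ran from 0 to 1 as each library was left out. With library totals the members' median was 2.28, where it was 2.81, and the median log2 ratio of mean CPM was 2.31, or 2.84 with TMM-scaled CPM; the scaling itself makes this shift. In the flow-through, the count called for genotype, 0, was 3 with DESeq2 and 3 with no filter on low counts, and 0 to 1 as each library was left out; the cause was not tested. Entering the library left out as labelled moved the median genotype difference in the flow-through to -0.58 and that of the interaction to 0.85. The genotype counts in CD45 cells and in the interaction were 0 under each alternative run. For genes named one by one, 613 alternative values stayed on the same side of the threshold, where a value without a call may change sign, and 27 passed it newly. No paired analysis was possible because the labels carry no replicate numbers that pair libraries. Depth limits Oas3 in the flow-through (at most 5 counts) and the ligand genes.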

Other observations

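The library labelled flow-through WT replicate 5, which was left out of the reported comparisons, had 26 of the 39 members inside the range of the CD45 libraries and 25 above every flow-through library used. It lay below every CD45 library for 13 members and below every flow-through library for 7. Slfn5 was at 104 CPM, Oas3 at 25.6 CPM and Trim30a at 162 CPM there, levels of the CD45 libraries, while Ifit2 was at 13.1 CPM, Ifit3b at 2.94 CPM and Gbp3 at 10.3 CPM, under every flow-through library.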
